A study of Rattus norvegicus with 18 samples.

Results

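Cultures that received extracellular vesicles before glutamate (Glutamate_vesicles) were compared with cultures that received glutamate alone (Glutamate), gene by gene over the whole transcriptome. The comparison takes in 6 of the 18 libraries of the series, 3 in each group, chosen by the treatment in their labels. All cultures were primary neuroglial cultures from the cerebral cortex of newborn Wistar rats, holding neurons together with glia, and were used on day 10 in vitro. Both groups received 100 µM glutamate as a model of excitotoxicity, and their RNA was collected 4 h later. Glutamate_vesicles cultures had in addition been given, on the day before, vesicles released by human glial progenitor cells (GPCs) derived from induced pluripotent stem cells. The other groups were untreated Control, Memantine, which received memantine together with 100 µM glutamate, and 2 further GPC preparations with glutamate. These preparations were labelled Glutamate_secret and Glutamate_BPC. According to the study's methods, the cortex was cleared of its vascular lining, and cytosine arabinoside was given to limit the growth of glia. No group had vesicles without glutamate. The labels do not say that the 3 libraries of a group came from separate cultures. The p-values therefore measure a spread between libraries only, which was estimated over all 18 libraries of the series.

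Excitotoxicity is the injury of neurons by excess glutamate, which opens ionotropic receptors, lets calcium into the cell and loads the mitochondria. Extracellular vesicles are membrane-bound particles that carry proteins and RNA between cells, and vesicles of glial and stem cell origin are studied as carriers of protective factors. Astrocytes take up glutamate and respond to injury with intermediate filament and matrix genes, so that a mixed culture shows both the neuronal and the glial side of the response. In bulk RNA, fewer cells of a type and less RNA per cell cannot be told apart.

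The largest differences by p-value were in Gja5 and Dysf, and both genes had more reads in every vesicle library than in any Glutamate library. Gja5 encodes connexin 40, a gap junction protein known from arterial endothelium and the conduction system of the heart. Dysf encodes dysferlin, a ferlin family protein that takes part in the resealing of damaged plasma membranes. Their promoters are shown because the next sections turn on these genes. Each stretch holds 250 bases before and 50 bases after the annotated start on the plus strand of the RefSeq build GRCr8, at chr2:187290977-187291276 for Gja5 and chr4:118059918-118060217 for Dysf. Capitals mark GC boxes (GGGCGG, on either strand) and TATA boxes (TATAAA, on either strand).
Gja5: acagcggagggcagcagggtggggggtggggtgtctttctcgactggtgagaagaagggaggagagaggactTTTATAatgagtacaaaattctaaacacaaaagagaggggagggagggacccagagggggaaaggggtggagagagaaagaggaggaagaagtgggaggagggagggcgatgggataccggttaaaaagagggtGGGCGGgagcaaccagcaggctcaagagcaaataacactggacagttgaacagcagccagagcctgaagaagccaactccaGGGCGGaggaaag
Dysf: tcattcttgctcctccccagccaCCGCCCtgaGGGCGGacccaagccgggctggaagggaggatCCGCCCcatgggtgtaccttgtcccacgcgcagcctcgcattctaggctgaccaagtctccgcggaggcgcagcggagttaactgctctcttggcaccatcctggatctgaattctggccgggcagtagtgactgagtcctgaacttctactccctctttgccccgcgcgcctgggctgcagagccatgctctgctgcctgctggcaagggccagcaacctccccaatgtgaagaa
The Gja5 stretch had 2 GC boxes and 1 TATA box, with a GC content of 55.3%. The Dysf stretch had 3 GC boxes and a GC content of 62.7%. GC boxes occurred in 33.1% and TATA boxes in 14.2% of the 33469 promoters in the table, whose median GC content was 51.7%. Neither stretch held the letters of an AP-1 site (TGANTCA), a TEAD site (GGAATG) or a CACGTG E-box, which occurred in 7.33%, 14.2% and 6.42% of all promoters. These matches describe letters only.

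The libraries of the 2 groups held between 10406915 and 17206354 estimated reads. Libraries of the same number in different groups were in part more alike than libraries of the same group. Across genes, on the log2 scale of CPM (read counts scaled to the same library size), Glutamate 1 correlated at 0.963 with vesicles 1 and at 0.764 with Glutamate 2. The first principal component of the 6 libraries, with 72.6% of the variance, separated libraries 1 from libraries 2 of both groups. The second, with 10.6%, separated Glutamate from Glutamate_vesicles. Ribosomal RNA took 8.001% to 20.4% of a Glutamate library and 5.28% to 13.4% of a vesicle library. Its part in the results was not tested beyond a fit that used this share as a covariate. Markers of the expected cells were present in all 6 libraries. The neuronal tubulin gene Tubb3 lay at 141 to 214 CPM in Glutamate and 152 to 215 CPM in Glutamate_vesicles, and the astrocyte filament gene Gfap lay at 2115 to 7559 CPM and 2066 to 5216 CPM.

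Across all genes, no difference between Glutamate_vesicles and Glutamate passed adjustment for multiple testing. Of 14398 genes tested with edgeR's quasi-likelihood test, 0 (0%) passed an adjusted p of 0.05, the smallest value being 0.558. Before adjustment, 155 genes (1.08%) had a p below 0.05, and all of them also differed more than 1.5-fold. Of these, 69 (0.479% of all tested) were higher and 86 (0.597%) lower with vesicles. This fit had no term for the replicate number. With such a term, 460 genes met the same unadjusted p and fold, and 0 passed adjustment, while DESeq2 with the term called 6. Without that term, the likelihood-ratio test of edgeR, the kind of test named in the study, called 2 genes after adjustment, and DESeq2 called 3. The study's methods name an adjusted threshold of 0.05, whereas its results count genes at a p-value below 0.05 and a 1.5-fold change. Its counts are therefore not set beside these. For 903 genes (6.27%) the groups had separate ranges of CPM, 416 (2.89%) of them higher and 487 (3.38%) lower with vesicles. Every gene value given below for this comparison therefore describes a difference that missed the adjusted threshold in the quasi-likelihood test, and a p that misses the threshold does not show that the groups are alike. The log2 fold changes, Glutamate_vesicles over Glutamate, had a median of -0.01 over all genes, with the middle range from -0.29 to 0.21 and a median standard error (SE) of 0.62.

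**Figure D1:**
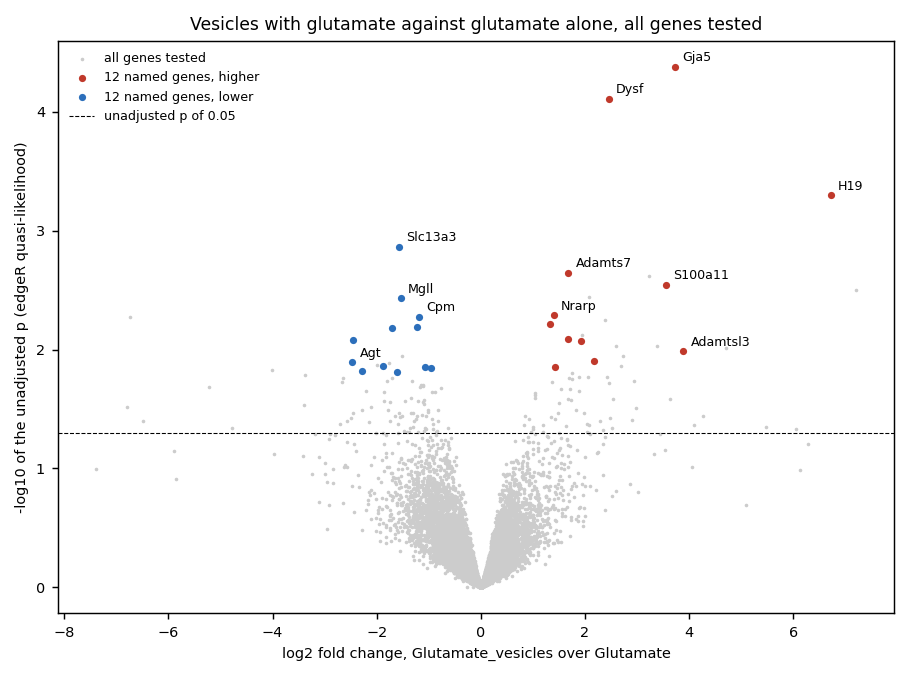
Log2 fold change of Glutamate_vesicles over Glutamate (x axis) against the negative log10 of the unadjusted p of edgeR's quasi-likelihood test (y axis) for the 14398 genes tested. Red and blue points are the 12 higher and 12 lower genes described in the text, the dashed line is an unadjusted p of 0.05, and Gja5 and Dysf lie at the top of the plot.

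Among genes with group ranges that did not overlap and a mean log2 CPM of at least 1, the 12 with the smallest p in each direction were taken. The 12 higher genes had log2 fold changes from 1.32 to 6.72, and 6 of them exceeded 2. Gja5 was at 2.20, 0.381 and 1.65 CPM in Glutamate libraries 1, 2 and 3 and at 22.8, 14.0 and 18.7 CPM in vesicle libraries 1, 2 and 3. The lowest vesicle library was thus well above the highest Glutamate library, and the group means were 1.41 ± 0.932 (SD, n = 3) and 18.5 ± 4.42 (SD, n = 3). The log2 fold change of Gja5 was 3.74 (SE 0.66, 95% interval 2.32 to 5.15, edgeR adjusted p = 0.558). The counts behind it were 40 reads in the Glutamate group and 963 in the vesicle group. Dysf was at 11.5, 12.5 and 7.49 CPM in Glutamate and at 58.4, 35.8 and 79.1 CPM in Glutamate_vesicles. All 3 vesicle libraries were high for Dysf, with a log2 fold change of 2.46 (SE 0.46, 95% interval 1.47 to 3.44, edgeR adjusted p = 0.558). The likelihood-ratio test called these same genes, Gja5 at an adjusted p of 0.00105 and Dysf at 0.00977.

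H19, an imprinted long non-coding RNA that is abundant in the embryo, had the largest fold of the 12, but its vesicle libraries did not resemble each other. It was at 0.904, 0.254 and 0.584 CPM in Glutamate and at 125.9, 1.77 and 51.2 CPM in Glutamate_vesicles. Vesicles 1 and 3 were far above all other libraries, whereas vesicles 2 lay within the range of Glutamate_secret and Glutamate_BPC, where no library exceeded 6.73 CPM. The log2 fold change was 6.72 (SE 1.54). DESeq2 called H19 as well as Gja5 and Dysf, at an adjusted p of 0.000341. S100a11, which encodes a calcium-binding partner of annexins, had the same low library. It was at 3.23, 0.317 and 1.85 CPM in Glutamate and at 34.7, 3.41 and 24.3 CPM in Glutamate_vesicles, with a log2 fold change of 3.56 (SE 1.01).

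Extracellular matrix and adhesion genes made up a further group of the 12. Adamts7, a secreted metalloprotease, was at 3.49, 9.78 and 5.45 CPM in Glutamate and at 14.7, 22.2 and 23.2 CPM in Glutamate_vesicles (log2 fold change 1.68). Adamtsl3, a related matrix protein without protease activity, was at 0.129, 1.84 and 0.292 CPM against 3.09, 14.8 and 17.8 CPM (3.89). Thbs4, a thrombospondin secreted by astrocytes after injury, was at 0.904, 5.14 and 2.82 CPM against 10.1, 12.3 and 11.9 CPM (1.93). The vesicle libraries of Thbs4 were close to each other and the Glutamate libraries were not. Col18a1, the collagen of basement membranes that contains endostatin, was at 4.91, 4.38 and 4.96 CPM against 16.5, 10.9 and 37.2 CPM (2.18). Tgfb1i1, which encodes the focal adhesion adaptor Hic-5, was at 11.4, 8.06 and 9.05 CPM against 21.8, 24.6 and 24.7 CPM (1.32). For Tgfb1i1 both groups were tight and clearly apart.

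The remaining genes of the 12 had neuronal or signalling roles. Nrarp, a target and inhibitor of Notch signalling, was at 18.3, 21.1 and 13.9 CPM in Glutamate and at 35.4, 44.1 and 61.4 CPM in Glutamate_vesicles (log2 fold change 1.40). Nptxr, the neuronal pentraxin receptor of excitatory synapses, was at 94.3, 88.8 and 69.4 CPM against 202.0, 146.2 and 452.5 CPM (1.67). Its Control libraries lay at 110.2, 318.6 and 261.0 CPM, a range that overlapped that of the vesicle libraries. Stac2, which encodes a partner of voltage-gated calcium channels, was at 4.65, 5.33 and 6.13 CPM against 11.96, 12.4 and 18.8 CPM (1.42).

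The 12 lower genes had log2 fold changes from -2.47 to -0.96, and 3 of them were below -2. Several are expressed by astrocytes or belong to their metabolism. Slc13a3, a sodium-coupled dicarboxylate transporter, was at 22.5, 29.7 and 30.2 CPM in Glutamate and at 11.1, 11.8 and 4.71 CPM in Glutamate_vesicles, with a log2 fold change of -1.58 (SE 0.41). Mgll, monoacylglycerol lipase, which degrades the endocannabinoid 2-arachidonoylglycerol, was at 84.9, 79.5 and 210.8 CPM against 51.6, 49.8 and 27.5 CPM (-1.54). Agt, the angiotensinogen gene of astrocytes, was at 29.8, 8.95 and 46.9 CPM against 6.28, 6.66 and 2.53 CPM (-2.47). For each of these transcripts the third vesicle library was the lowest of the 6.

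Dio2, the deiodinase with which astrocytes activate thyroid hormone, was at 4.39, 9.33 and 15.4 CPM in Glutamate and at 3.29, 3.53 and 1.07 CPM in Glutamate_vesicles (log2 fold change -1.89). Hk2, the inducible hexokinase of glycolysis, was at 40.4, 32.5 and 25.3 CPM against 15.7, 20.3 and 10.8 CPM (-1.07). Hk2 lay at 5.44 to 14.0 CPM in Control, so that the vesicle libraries were nearer to the untreated cultures than the Glutamate libraries were. Gabrb1, a beta subunit of the GABA-A receptor, was at 5.68, 7.56 and 9.14 CPM against 2.49, 2.97 and 1.36 CPM (-1.71). Oasl2, an interferon-induced gene of antiviral defence, was at 5.68, 10.4 and 10.5 CPM against 3.79, 0.602 and 0.632 CPM (-2.45). The others were Cpm, a membrane carboxypeptidase (-1.19), Nwd1 (-1.22), Prxl2a, a peroxiredoxin-like gene (-0.96), Tmem82 (-2.29) and Arhgap5, a GTPase-activating protein (-1.61). Of the 12 lower genes, 11 had a mean in Glutamate_vesicles below the Control mean as well.

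**Figure D2:**
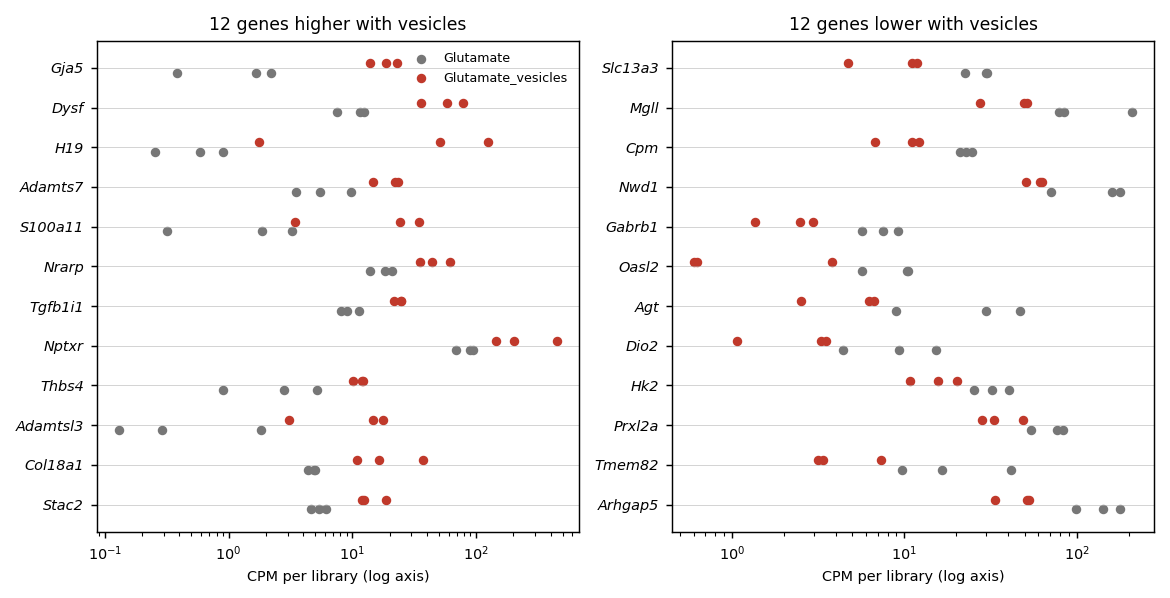
CPM on a log axis in each Glutamate library (grey) and each Glutamate_vesicles library (red) for the 12 higher genes (left) and the 12 lower genes (right). Ranges do not overlap by the way the genes were chosen; H19 and S100a11 each have 1 vesicle library close to the Glutamate libraries.

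The 12 higher genes were then followed through the other groups, whose libraries had entered the fit that ranked the genes through the filter and the estimate of spread. The ranges of Glutamate and Glutamate_vesicles were separate by the rule. All 12 had a higher mean in Glutamate_vesicles than in Control, and for 5 of them (Gja5, Adamts7, Tgfb1i1, Col18a1 and Stac2) each of the 3 vesicle libraries lay above all 15 other libraries. None of the 12 lower genes had its vesicle libraries below all 15 others. The vesicle values by which both sets were chosen enter these counts too. The share among all genes tested was not counted, so the counts cannot be judged against it. Gja5 averaged 0.394 ± 0.269 CPM in Control, 0.668 ± 0.248 in Memantine, 3.60 ± 0.681 in Glutamate_secret and 7.08 ± 3.55 in Glutamate_BPC (SD, n = 3 each). In order of mean level, Glutamate_vesicles came first, then Glutamate_BPC, Glutamate_secret, Glutamate, Memantine and Control. The range of Glutamate_vesicles lay above that of Glutamate_BPC, whose highest library was at 10.0 CPM. The ranges of Glutamate_BPC and Glutamate_secret overlapped, and so did those of Glutamate, Memantine and Control.

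Against Control, Gja5 was higher by 5.45 on the log2 scale (SE 0.74, edgeR adjusted p = 0.0215) and passed the test. Dysf was higher by 3.44 (SE 0.49, edgeR adjusted p = 0.0215), and these were the 2 genes (0.0139%) that edgeR's quasi-likelihood test called in that comparison. In the same comparison 1670 genes had an unadjusted p below 0.05, the likelihood-ratio test called 160 and DESeq2 called 495. Without vesicles 2 both genes still passed (edgeR adjusted p = 0.0283). Leaving out vesicles 1, vesicles 3 or any 1 of the 3 Control libraries lost both calls, with edgeR adjusted p-values from 0.0831 to 0.348, while the log2 differences stayed between 5.04 and 6.33 for Gja5 and between 3.15 and 3.72 for Dysf. Against Memantine, the log2 difference of Gja5 was 4.79 (edgeR adjusted p = 0.0659) and that of Dysf 2.64 (edgeR adjusted p = 0.288). Neither passed there, and edgeR's quasi-likelihood test called 0 genes (0%) against Memantine, with 1039 at an unadjusted p below 0.05, 11 called by the likelihood-ratio test and 88 by DESeq2. All 3 tools called 0 genes (0%) against Glutamate_secret and against Glutamate_BPC, where 91 and 69 genes had an unadjusted p below 0.05. Against Glutamate_secret the log2 differences were 2.35 (95% interval 1.03 to 3.67) for Gja5 and 1.17 (0.23 to 2.12) for Dysf. Against Glutamate_BPC they were 1.38 (0.11 to 2.65) and 1.38 (0.43 to 2.32), each with an edgeR adjusted p of 0.999. Dysf averaged 5.26 ± 1.72 CPM in Control, 25.6 ± 13.2 in Glutamate_secret and 22.3 ± 1.43 in Glutamate_BPC (SD, n = 3 each), and 1 Glutamate_secret library, at 40.6 CPM, exceeded the lowest vesicle library. These comparisons all share the 3 vesicle libraries.

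**Figure D3:**
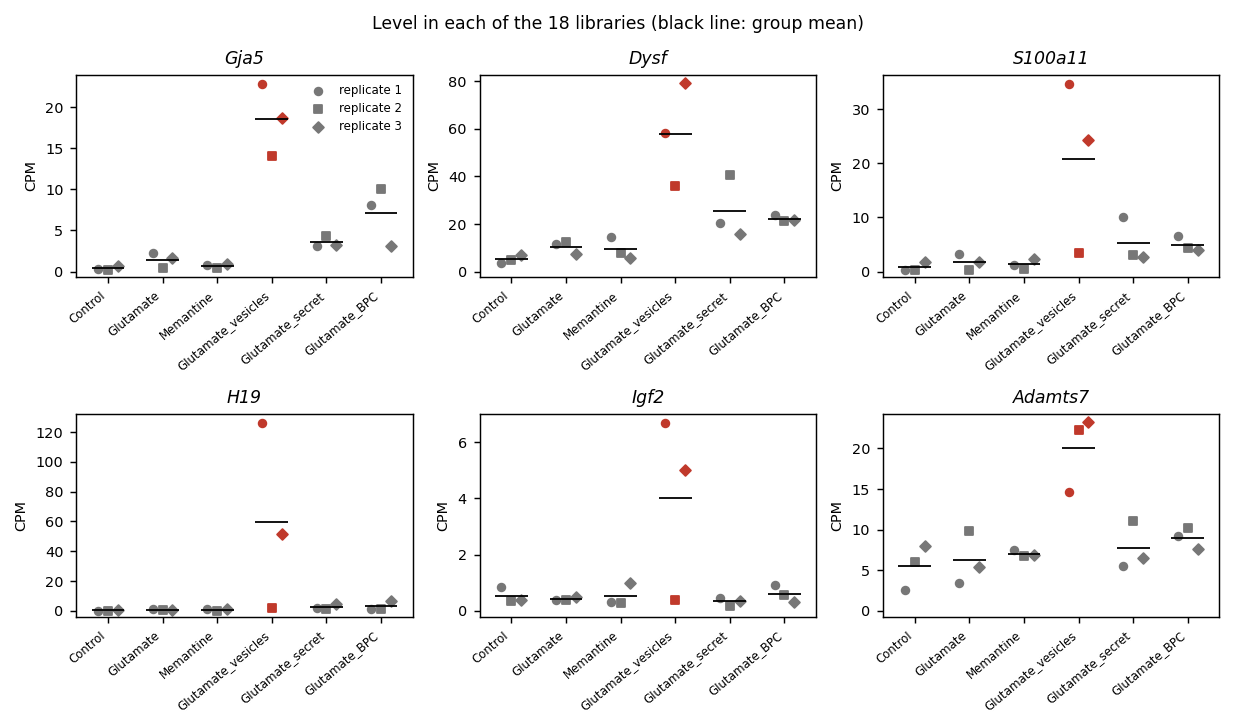
CPM of Gja5, Dysf, S100a11, H19, Igf2 and Adamts7 in each of the 18 libraries, with the group mean as a black line, marker shape giving the replicate number and Glutamate_vesicles in red. Gja5 and Adamts7 have all 3 vesicle libraries above the other 15, whereas H19 and Igf2 are high in vesicles 1 and 3 only.

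The remaining values are given by gene list. Of the 34 lists, 19 had a median that changed sign when at least 1 of the 6 libraries was left out, and 15 when the share of ribosomal RNA was a covariate, so that a list's direction describes these libraries.

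Genes of membrane repair were mostly higher with vesicles. This list holds the ferlins, the annexins, their S100 partners, caveolins and calpains, which act together when a torn plasma membrane is patched. Of 23 members tested, 19 were higher and 4 lower, with a median log2 fold change of 0.44 against -0.01 over all genes. In 7 of the 23 the ranges did not overlap, all higher, beside 2.89% of all genes. An unadjusted p below 0.05 was found for 3 (Dysf, S100a11 and Anxa5), beside 1.08% of all genes. Dysf and S100a11 enter both counts and had already been picked above for small p and separate ranges. The list was also chosen with earlier results known, so these counts are no independent evidence for membrane repair. Anxa5, the annexin that binds exposed phosphatidylserine, was at 42.1, 32.3 and 54.7 CPM in Glutamate and at 83.2, 68.4 and 114.8 CPM in Glutamate_vesicles (log2 fold change 1.05). Myof, the ferlin most like dysferlin, was at 0.129, 1.84 and 1.75 CPM against 2.49, 2.93 and 6.66 CPM (1.67). Capns1, the small calpain subunit, was at 135.2, 113.8 and 188.3 CPM against 250.3, 208.6 and 214.7 CPM (0.62). Summed over the list, Glutamate libraries held 786.1 to 1331 CPM and vesicle libraries 1347 to 1947 CPM. Leaving out any 1 of the 6 libraries left between 16 and 21 members higher, and with the ribosomal RNA covariate 17 were higher (median 0.24). Among the 9 connexins and pannexins tested, 5 were higher and 4 lower (median 0.06), and Gja5 stood alone, with the others between -0.75 and 0.22.

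Integrins and focal adhesion genes, which tie the actin skeleton to the matrix, were also mostly higher. Of 30 tested, 27 were higher and 3 lower (median 0.35). In 7 of the 30 the ranges did not overlap, all higher, beside 2.89% of all genes. Only 1 of the 30 had an unadjusted p below 0.05, beside 1.08% of all genes. Itga5, the fibronectin receptor subunit, was at 23.5, 11.999 and 9.05 CPM in Glutamate and at 30.9, 41.6 and 40.7 CPM in Glutamate_vesicles (log2 fold change 1.35). Flna, filamin A, was at 137.2, 155.7 and 131.6 CPM against 223.5, 278.4 and 241.1 CPM (0.81). The count depended on the fit. Without vesicles 2 it was 17 of 30, with a median of 0.04, and with the share of ribosomal RNA as a covariate it was 13 of 30, with a median of -0.11.

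Matrix genes leaned the same way with less uniformity. Of 23 collagens, 17 were higher and 6 lower (median 0.24), and of 39 matrix glycoproteins and fibulins, 27 were higher and 12 lower (median 0.34). Those with an unadjusted p below 0.05 were Col18a1 and Col6a1 among the collagens and Postn, Thbs4, Ccn2 and Fbln2 among the glycoproteins. These were 2 of 23 and 4 of 39, beside 1.08% of all genes, and Col18a1 and Thbs4 were already among the 12 higher genes. Ranges did not overlap in 4 collagens, all higher, and in 6 higher and 1 lower of the glycoproteins. Of all genes, 2.89% were higher and 3.38% lower without overlap. Fbln2, fibulin 2, was at 304.4, 121.2 and 135.2 CPM in Glutamate and at 659.2, 409.0 and 491.2 CPM in Glutamate_vesicles (log2 fold change 1.48). Ccn2, a matricellular gene induced by mechanical tension, was at 27.0, 12.3 and 4.09 CPM against 31.9, 65.5 and 41.5 CPM (1.68). Col6a1, a collagen VI chain, was at 0.517, 0.952 and 1.17 CPM against 3.39, 1.97 and 3.65 CPM (1.75). Postn, periostin, was near the limit of detection, at 0, 0.190 and 0 CPM against 1.30, 0.682 and 4.81 CPM. Of 28 matrix proteases and inhibitors, 19 were higher and 9 lower (median 0.28). Plaur, the urokinase receptor, was at 2.45, 0.381 and 0.486 CPM against 1.495, 3.25 and 5.49 CPM, and Mmp14, a membrane-bound protease, was at 101.5, 195.2 and 196.2 CPM against 95.4, 103.0 and 80.4 CPM. Without Glutamate 1 the median of the collagens was -0.11, and without vesicles 2 those of the glycoproteins and proteases were 0.05 and 0.07. With the ribosomal RNA covariate 9 of 23 collagens and 18 of 39 glycoproteins were higher.

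**Figure D4:**
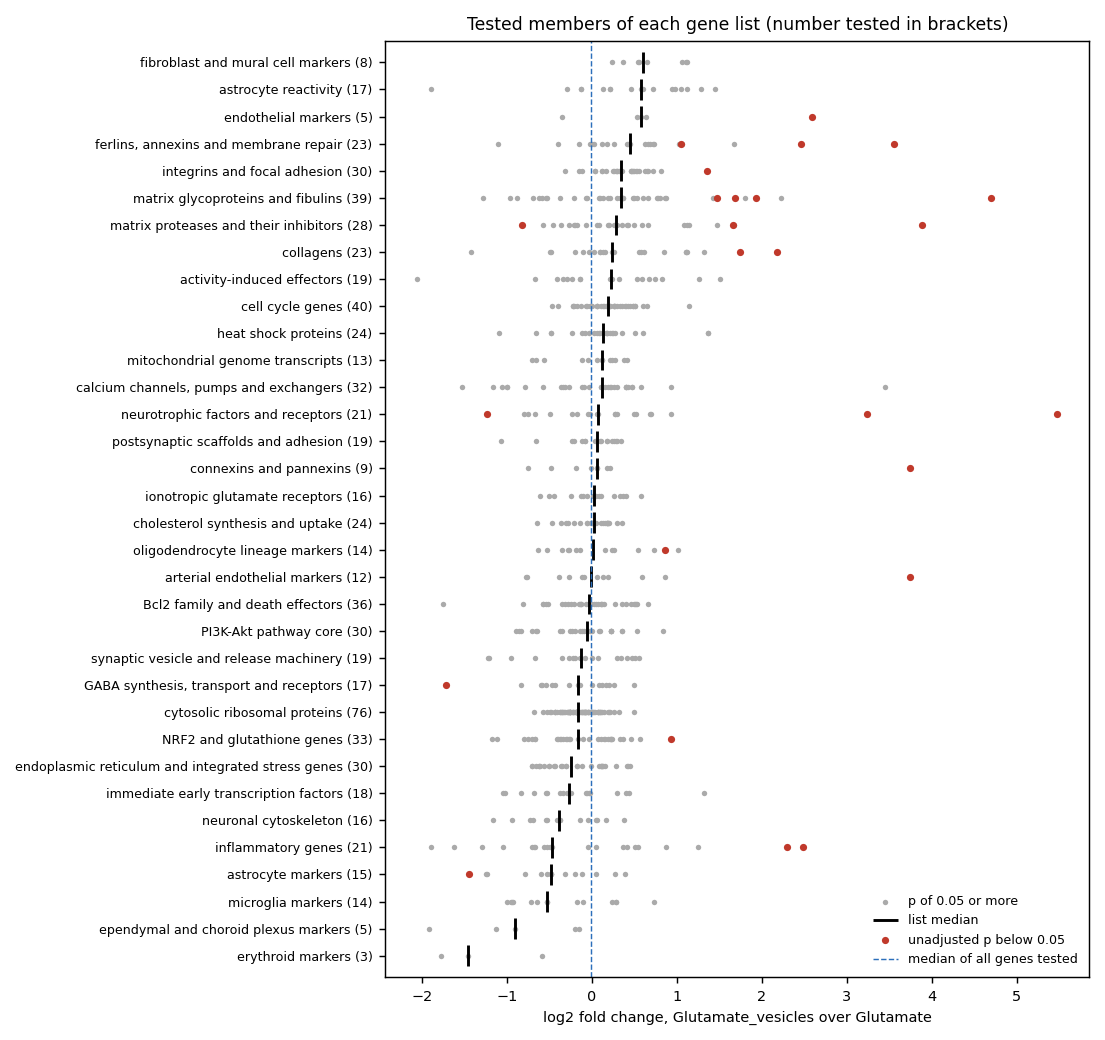
Log2 fold change (x axis) of each tested member of the 34 gene lists (grey, or red at an unadjusted p below 0.05), with the list median as a black bar and the median of all genes as a dashed line. Lists are sorted by median, from fibroblast and mural cell markers at 0.60 to erythroid markers at -1.46, and no point passed adjustment over all genes.

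Markers of other cell types were examined beside these matrix and junction genes, because Gja5 and collagens are also known from blood vessels and meninges. Of 17 endothelial markers only 5 had enough reads to be tested, and the whole list summed to 8.08 to 14.2 CPM in Glutamate and 9.87 to 28.5 CPM in Glutamate_vesicles. Defining endothelial genes were near 0, with 11 reads of Cdh5 over the 3 Glutamate libraries and 18 over the 3 vesicle libraries, 4 and 23 of Flt1, and 9 and 7 of Kdr. Of the 10 endothelial members below the filter, 8 had more reads in the vesicle group and 1 had fewer. Read counts in this paragraph are not scaled to library size. Vesicles 2 and 3 held 17206354 and 15869888 reads in all, against at most 11532961 in a Glutamate library. More reads in the vesicle group thus need not mean a higher level. Within the 15 arterial markers Gja4, the other arterial connexin, had 3 and 5 reads, and of the 12 tested 6 were higher and 6 lower (median -0.01). Plvap, a protein of endothelial fenestrae, was at 1.16, 0.317 and 0.195 CPM against 4.39, 1.00 and 4.52 CPM. Fibroblast and mural markers were tested for 8 of 18 genes, and all 8 were higher (median 0.60), with 0 at an unadjusted p below 0.05. Their sum was 110.8 to 418.9 CPM in Glutamate and 342.4 to 690.0 CPM in Glutamate_vesicles, and its largest member in each library was Tagln, which encodes the actin-binding protein transgelin. Of the 10 members below the filter, 6 had more reads in the vesicle group, 3 had fewer, and Rgs5 of pericytes had 0 in all 6 libraries. Kcnj8, a potassium channel gene of pericytes, had 3 reads in the Glutamate group and 26 in the vesicle group, Twist1 had 4 and 18, Acta2 of smooth muscle had 4 and 13, and the fibroblast genes Dcn and Lum each had 2 and 1. The part of such cells in the matrix values was not tested.

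Glial markers gave a mixed picture. Of 15 astrocyte markers tested, 3 were higher and 12 lower (median -0.48). Aldoc, the aldolase of astrocytes, was at 608.7, 273.7 and 699.0 CPM in Glutamate and at 294.5, 194.3 and 90.4 CPM in Glutamate_vesicles (log2 fold change -1.45). S100b was at 1422, 441.4 and 1805 CPM against 786.7, 423.6 and 332.6 CPM (-1.25). Gfap did not separate the groups, with a log2 fold change of -0.32 (SE 0.67) that changed sign without Glutamate 3. In the opposite direction, 13 of 17 genes of astrocyte reactivity were higher and 4 lower (median 0.58). Without vesicles 2 the median was 0.29, and with the ribosomal RNA covariate it was 0.07, with 9 of 17 higher. Vim, the intermediate filament vimentin, was at 536.6, 309.3 and 824.0 CPM against 1762, 854.4 and 1456 CPM (1.29), without overlap. Timp1, an inhibitor of matrix proteases that reactive glia secrete, was at 414.3, 24.6 and 115.5 CPM against 689.5, 184.3 and 331.4 CPM (1.12). The reactivity list summed to 1855 to 2353 CPM in Glutamate, 3025 to 4123 CPM in Glutamate_vesicles and 562.5 to 1552 CPM in Control, so the vesicle libraries were farther from Control than the Glutamate libraries were.

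Gja1, the main connexin of astrocytes, was at 47.5, 253.4 and 125.4 CPM in Glutamate and at 51.4, 161.3 and 92.9 CPM in Glutamate_vesicles (log2 fold change -0.48), with ranges that overlapped. Spp1, which encodes the secreted protein osteopontin, was at 18.99, 20.4 and 82.0 CPM against 62.7, 92.2 and 171.8 CPM (1.43). Lgals1, a galectin, was at 47.9, 1.27 and 47.1 CPM against 318.4, 6.34 and 52.8 CPM (1.97), and without vesicles 1 its sign changed. Microglia markers were lower in 10 of 14 tested (median -0.53), but without Glutamate 3, which had the largest microglial sum of the 6 libraries at 521.2 CPM, 9 were higher. Oligodendrocyte lineage markers were evenly divided, with 7 higher and 7 lower (median 0.01) and log2 fold changes from -0.64 to 1.01. Their median was -0.41 without vesicles 2 and 0.42 without Glutamate 2. Olig1, a transcription factor of oligodendrocyte precursors, was at 293.8, 208.4 and 338.8 CPM in Glutamate and at 496.0, 389.2 and 637.1 CPM in Glutamate_vesicles (log2 fold change 0.86), without overlap and with an unadjusted p below 0.05. Cspg4, the NG2 proteoglycan of the same precursors, was at 22.7, 31.7 and 9.92 CPM against 28.0, 56.2 and 45.2 CPM (1.01). Both genes belong to the 7 higher members, and Cspg4 had the highest log2 fold change of the list. Olig1 alone among the 14 members reached that p, beside 1.08% of all genes. Ependymal and choroid plexus markers were lower in 5 of 5 tested (median -0.90) and erythroid markers in 3 of 3 (median -1.46). Both lists rested on a few CPM, and without Glutamate 1 the erythroid median was 0.02.

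**Figure D5:**
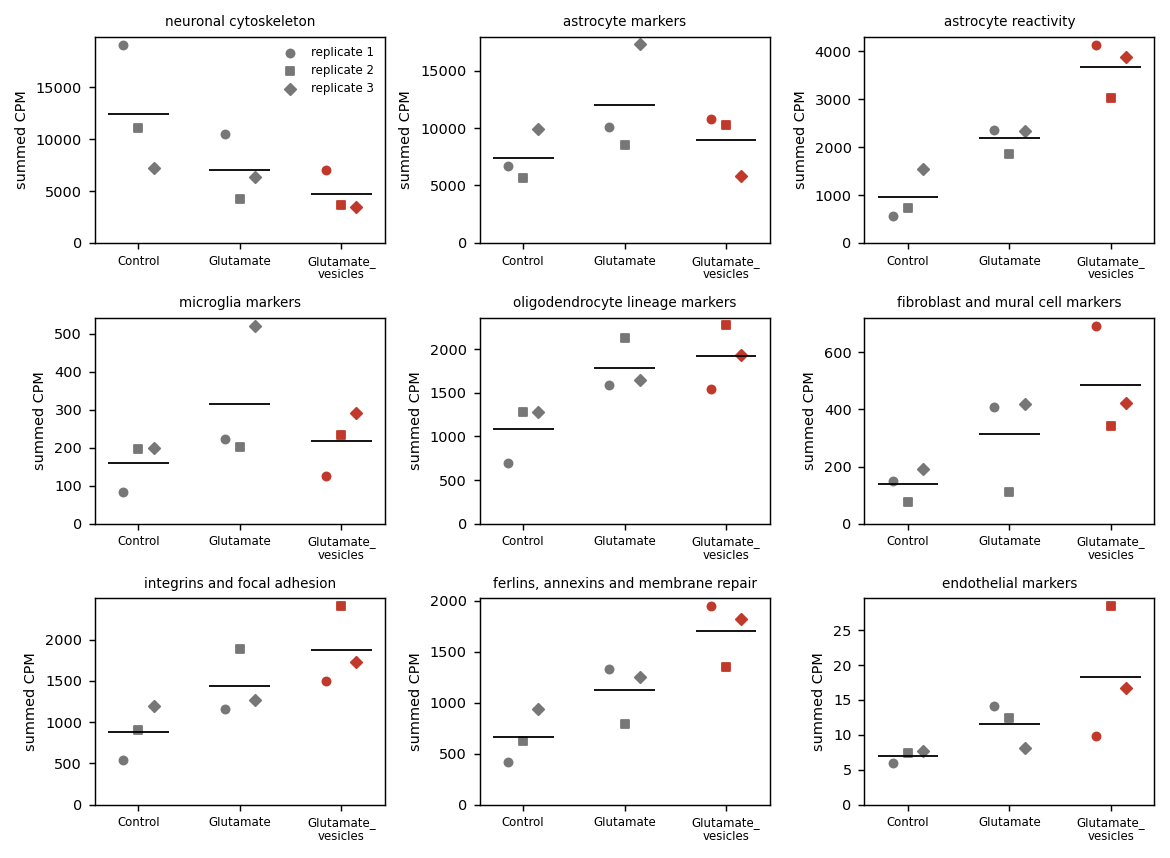
Summed CPM of 9 gene lists in the Control, Glutamate and Glutamate_vesicles libraries, with the group mean as a black line and marker shape giving the replicate number. Sums of astrocyte reactivity and of membrane repair genes are higher in all 3 vesicle libraries than in the 3 Glutamate libraries; those of neuronal cytoskeleton and microglia overlap.

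Neuronal gene lists had members in both directions, and their medians depended on single libraries. Neither the 16 ionotropic glutamate receptor genes (9 higher, 7 lower, median 0.03) nor the 19 postsynaptic genes (12 higher, 7 lower, median 0.06) had a member at an unadjusted p below 0.05. Grin1, the obligatory NMDA receptor subunit, was at 41.6, 18.7 and 15.95 CPM in Glutamate and at 30.4, 25.4 and 17.6 CPM in Glutamate_vesicles. Gria2, the AMPA receptor subunit that limits calcium entry, was at 56.2, 252.0 and 127.2 CPM against 84.5, 117.0 and 83.0 CPM. Synaptic vesicle genes were higher in 7 and lower in 12 of 19 (median -0.13). Pclo had the lowest log2 fold change of this list at -1.22. Cplx2, at -0.96, was the only member without overlap. Snap25, a fusion protein of the nerve terminal, had the highest log2 fold change of the list at 0.56. It was at 9.94, 29.5 and 14.2 CPM in Glutamate against 13.3, 38.2 and 27.7 CPM in Glutamate_vesicles. Control libraries held 34.3 to 104.6 CPM of Snap25, above 5 of the 6 libraries compared. GABA genes were higher in 6 and lower in 11 of 17 (median -0.16), with Gabrb1 the only one at an unadjusted p below 0.05. Without vesicles 2 the medians of the glutamate receptor, postsynaptic and GABA lists were -0.37, -0.31 and -0.98, and without Glutamate 2 they were 0.67, 0.46 and 0.42. With the ribosomal RNA covariate they were -0.43, -0.41 and -0.73. The median of the synaptic vesicle list was 0.29 without Glutamate 1.

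The neuronal cytoskeleton list was lower in 12 of 16 (median -0.38, or -0.09 without Glutamate 1), and no member had an unadjusted p below 0.05. Mapt, which encodes the axonal protein tau, was at 1098, 818.6 and 835.4 CPM in Glutamate and at 740.4, 463.2 and 460.8 CPM in Glutamate_vesicles (log2 fold change -0.73), without overlap, against 1094 to 3421 CPM in Control. For calcium channels, pumps and exchangers, the genes that set the calcium load of the cell, 18 of 32 were higher and 14 lower (median 0.11). The median was -0.28 without vesicles 2, -0.28 with the ribosomal RNA covariate and 0.31 without Glutamate 2. None of the 32 had an unadjusted p below 0.05. Atp2b4, a plasma membrane calcium pump, was at 39.3, 26.1 and 36.4 CPM against 16.1, 19.9 and 14.7 CPM (-1.004). Cacnb2, a calcium channel beta subunit, was at 1.81, 5.21 and 2.24 CPM against 5.38, 6.98 and 5.44 CPM (0.93). These were the only members of that list of 32 without overlap, 1 in each direction, beside 6.27% of all genes. The genes of the mitochondrial genome were higher in 8 and lower in 5 of 13 (median 0.12).

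Transcription factors of the immediate early response, which neurons and glia switch on within an hour of strong stimulation, were lower in 14 and higher in 4 of 18 (median -0.27), with 0 at an unadjusted p below 0.05. Fos was at 27.6, 43.5 and 80.2 CPM in Glutamate and at 36.4, 24.96 and 23.8 CPM in Glutamate_vesicles, against 9.10 to 13.7 CPM in Control (log2 fold change -0.83, SE 0.42). Atf3, a stress-induced factor, was at 50.6, 30.3 and 28.5 CPM against 10.97, 28.7 and 13.4 CPM, with 7.17 to 9.96 CPM in Control (-1.04, SE 0.51). For Fos and Atf3 the vesicle means lay between the Glutamate and the Control means, and the ranges of Glutamate and Glutamate_vesicles overlapped. Klf6, a zinc finger factor of injured tissue, was at 339.8, 197.7 and 169.2 CPM against 127.2, 130.3 and 90.1 CPM (-1.02), without overlap. Arc, a synaptic plasticity gene, was at 0, 4.51 and 4.09 CPM against 0.798, 4.89 and 0.778 CPM, and Npas4 was too low to test, with 3 reads in the Glutamate group and 11 in the vesicle group.

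Activity-induced effectors, the genes downstream of these factors, were higher in 11 and lower in 8 of 19 (median 0.22), and none reached an unadjusted p below 0.05. Vgf, a neuropeptide precursor, was at 147.6, 19.7 and 24.9 CPM in Glutamate and at 135.1, 146.7 and 263.4 CPM in Glutamate_vesicles (log2 fold change 1.51). Bdnf was at 7.88, 5.21 and 2.92 CPM against 2.69, 4.98 and 2.33 CPM (-0.67). Among 21 neurotrophic factors and receptors, 12 were higher and 9 lower (median 0.08). Igf2 was at 0.387, 0.381 and 0.486 CPM against 6.68, 0.401 and 5.01 CPM (3.23, SE 0.89), so that vesicles 1 and 3 were high and vesicles 2 was at the level of Glutamate. Igf1 was at 10.7, 21.4 and 42.6 CPM against 10.6, 10.8 and 10.5 CPM (-1.23). Pdgfb had no reads in the Glutamate libraries and was at 0, 0.602 and 0.535 CPM in the vesicle libraries, for which no fold is given.

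In the PI3K-Akt pathway core, the kinases and phosphatases that carry survival signals from growth factor receptors, 10 of 30 were higher and 20 lower (median -0.06), and none had an unadjusted p below 0.05. The 4 of 30 members without overlap were all lower, beside 3.38% of all genes that were lower without overlap. Pik3ca, a catalytic subunit, was at 107.5, 91.5 and 120.6 CPM in Glutamate and at 89.1, 54.1 and 60.0 CPM in Glutamate_vesicles (log2 fold change -0.65), and Pdpk1, the kinase upstream of Akt, was at 10.1, 11.9 and 12.5 CPM against 7.78, 7.94 and 5.39 CPM (-0.70). The median ranged from -0.51 without vesicles 2 to 0.66 without Glutamate 2, with 8 to 23 members higher over the fits that left out 1 library. Bcl2 family and death effector genes were higher in 16 and lower in 20 of 36 (median -0.04), with 0 at an unadjusted p below 0.05.

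Stress genes varied within each list. For targets of NRF2 and genes of glutathione metabolism, which protect against oxidants, 14 of 33 were higher and 19 lower (median -0.17). Slc7a11, the cystine-glutamate exchanger, was at 113.3, 84.9 and 94.1 CPM in Glutamate and at 33.2, 76.4 and 25.5 CPM in Glutamate_vesicles (log2 fold change -1.11), without overlap. Hmox1, haem oxygenase 1, was at 696.9, 392.8 and 326.6 CPM against 204.9, 551.5 and 335.7 CPM, and its groups overlapped. Heat shock proteins were higher in 16 and lower in 8 of 24 (median 0.13). Hspa1a, an inducible chaperone, was at 0.775, 0.254 and 1.17 CPM against 2.39, 1.48 and 1.75 CPM, and Hspb1 was at 65.7, 3.75 and 31.2 CPM against 162.5, 48.7 and 48.9 CPM. Genes of the endoplasmic reticulum and the integrated stress response were higher in 11 and lower in 19 of 30 (median -0.24). Ddit3, the factor CHOP of that response, was at 211.0, 21.9 and 70.1 CPM against 105.6, 34.4 and 57.7 CPM.

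Inflammatory genes were higher in 9 and lower in 12 of 21 (median -0.46). Without Glutamate 2 the median was 0.33 and without Glutamate 3 it was 0.24. The chemokines of the list went in both directions. Ccl2, which recruits monocytes, was at 84.5, 4.83 and 11.97 CPM in Glutamate and at 95.3, 83.3 and 386.2 CPM in Glutamate_vesicles, against 0.245 to 5.28 CPM in Control (log2 fold change 2.48, SE 1.10). Ccl7, a related chemokine, was at 27.4, 1.27 and 6.91 CPM against 44.1, 19.7 and 109.5 CPM (2.29, SE 1.02). The high Glutamate library for both was Glutamate 1, and it lay above the lowest vesicle library. Cxcl10, a chemokine induced by interferon, had the lowest log2 fold change of the list at -1.90, and 1.08 without Glutamate 2. Tlr2, a receptor of microglia, was at 4.78, 5.65 and 10.4 CPM against 2.09, 4.21 and 2.14 CPM (-1.29), without overlap.

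Cell cycle genes were higher in 28 and lower in 12 of 40 (median 0.19), with 3 of the 40 without overlap, beside 6.27% of all genes, and 0 at an unadjusted p below 0.05. Cdkn2b, an inhibitor of cyclin D kinases, was at 6.72, 5.78 and 8.17 CPM in Glutamate and at 10.6, 8.55 and 26.4 CPM in Glutamate_vesicles (log2 fold change 1.14). Genes of cholesterol synthesis and uptake were higher in 13 and lower in 11 of 24 (median 0.02). Cytosolic ribosomal proteins were lower in 56 and higher in 20 of 76 (median -0.16). Their direction depended on single libraries, with 75 of 76 higher without Glutamate 1 and 2 of 76 higher without vesicles 1, and they took 1.65% to 16.7% of the reads of a Glutamate library and 3.23% to 13.3% of a vesicle library.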

How the data were processed

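The deposited values were expected counts per gene, made by the authors with Salmon against Ensembl rat transcripts and summed to genes with tximport after trimming with Trimmomatic and Cutadapt; the submitters' processing notes also name STAR and the build rn6. Versions and the strand setting of the counting are not given in the sources used here, so that overlapping genes may share counts. Reads were matched to rat transcripts, while the vesicles came from human cells. Kit and platform differ between the paper and the labels, and neither was relied on.

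Each file held 31463 rows, of which 5581 carried transcript identifiers (on average 1.60% of a library) and 78 were ribosomal RNA. Expected counts were rounded to whole numbers, although the design had been written for counts. Genes were tested in R 4.3.3 with edgeR 4.0.16, using all 18 libraries with 1 mean per group, filterByExpr (minimum count 10, minimum total 15), TMM scaling and the two-sided quasi-likelihood F test with Benjamini-Hochberg adjustment over 14398 genes at 0.05. SE values were derived from the F statistic, and log2 CPM used a prior count of 2. The spread given is the SD of 3 libraries. Replicate numbers were checked by the correlation of deviations from the group means. It was 0.768, 0.845 and 0.00459 for numbers 1, 2 and 3. Between unlike numbers it was -0.83 for vesicles 1 with Glutamate 2 and -0.754 for vesicles 2 with Glutamate 1. As number 3 did not match, the main fit did not take the numbers as pairs. Both libraries 3 lay between libraries 1 and 2 on the first principal component. Their low value therefore does not settle whether the numbers mark pairs. The study's supplement describes batch-corrected counts for its clustering plots, and names day as the covariate for the cultures without glutamate. The labels do not say whether the replicate numbers mark such a batch. The code was tested on simulated data.

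Named genes were the 12 of smallest p per direction among gene symbols without overlap whose mean log2 CPM reached 1, the 2 of smallest p per list and 14 fixed genes. Further genes in the text were picked from the lists after their values were seen. The comparison, the 34 lists and the rules were chosen with earlier results of these data known, so no list is independent evidence. Alternatives were the likelihood-ratio test, DESeq2 1.42.0, RLE scaling, no filter, the 6 libraries alone, removal of ribosomal RNA rows, a ribosomal RNA covariate, a replicate block and leaving out each library. Promoters came from RefSeq tables of GRCr8; motifs were searched on both strands. Of the 12 higher genes 9 had an entry, and of the 12 lower genes 10.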

Additional observations from a re-analysis of the deposited data

How the results depend on the processing

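Of the values of 94 named genes under 16 alternatives (1499 in all), 1471 kept their direction and their side of the adjusted threshold, 11 passed it newly and 17 changed sign. Against 0 genes called after adjustment, the edgeR likelihood-ratio test called 2 (Gja5 and Dysf), DESeq2 3 (also H19), and the ribosomal RNA covariate 1 (Rsad2); leaving out any 1 library called 0. The 155 genes at an unadjusted p below 0.05 and a fold above 1.5 became 255 with no filter, 254 with the 6 libraries alone and 568 with the covariate, and 51 (without vesicles 3) to 187 (without Glutamate 2) with 1 library left out. The 903 genes without overlap became 1128 to 3321 with 1 library fewer to overlap. With the replicate block, 460 genes passed the unadjusted criterion and 0 the adjusted one; DESeq2 with the replicate block gave 598 and 6 (Gja5, Dysf, H19, S100a11, Adamtsl3 and Adamts7). Libraries of number 3 did not deviate together, and an alternative chosen after seeing the data, without both of them and with the block, gave 122 and 0. Against Control, with 1 vesicle or (chosen after seeing the data) 1 Control library left out, Gja5 ranged from 5.04 to 6.33 on the log2 scale and Dysf from 3.15 to 3.72, and both passed the threshold only where vesicles 2 was the library left out (edgeR adjusted p = 0.0283). Against Memantine, Gja5 passed with the likelihood-ratio test (4.80), DESeq2 (4.82) and the replicate block (4.79), and Dysf with the likelihood-ratio test (2.64) and DESeq2 (2.64). Log2 fold changes of Glutamate_vesicles over Glutamate that changed sign had these ranges with 1 library left out: without Glutamate 1 at the upper end, Grik1 -0.70 to 0.088, Hbb -2.295 to 0.020, Rps14 -1.34 to 0.35, Ddit3 -1.13 to 0.52 and Hmox1 -0.80 to 0.019; without Glutamate 2 at the upper end, Gria2 -0.998 to 0.050, Cxcl10 -2.46 to 1.08, Mt-nd5 -1.23 to 0.12, Arc -1.86 to 0.078 and Gja1 -0.98 to 0.24; without Glutamate 3 at the upper end, Gfap -0.66 to 0.24; and without vesicles 1 at the lower end, Lgals1 -0.11 to 2.53. Signs also changed with the ribosomal RNA covariate (Rps14 0.61, Ddit3 0.19, Snap25 -0.15) and without replicate 3 of both groups and with the block (Arc 0.62, Gfap 0.56). The split of higher and lower genes at the unadjusted criterion was 69 and 86, against 71 and 183 with the 6 libraries alone and 158 and 410 with the covariate. Of 544 list medians, 5 moved by at least the median SE of the list's single genes, among them ribosomal proteins with the covariate (0.75). That limit is wide for a list median, so a median within it is not shown to be stable. Of the 34 lists, 19 had a median that changed sign with at least 1 library left out. The causes were not tested. With 3 libraries a group the median SE was 0.62 on the log2 scale, which limits the size of difference that can be told from 0.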

Other observations

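Interferon-stimulated genes, a list chosen after their values were seen because Oasl2 was among the 12 lower genes, were lower with vesicles in 26 of 26 tested (median log2 fold change -1.24), and no test is given. Much of this lay in 1 library, since Glutamate 2 was the highest of the 6 libraries for 22 of the 26 genes. Rsad2, the antiviral enzyme viperin, was at 0.258, 15.8 and 0.292 CPM in Glutamate and at 0, 0.843 and 0.0972 CPM in Glutamate_vesicles. Mx2, a dynamin-like antiviral GTPase, was at 7.23, 66.1 and 27.4 CPM against 5.38, 5.70 and 4.71 CPM, so that here all vesicle libraries were low. Control libraries also differed widely for Mx2, at 3.14, 36.5 and 29.6 CPM. Without Glutamate 2 the median of the list was -0.29, and 10 of the 26 genes were higher with vesicles.

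Imprinted genes were a further list chosen after values were seen, since H19 and Igf2 neighbour each other on the chromosome and are imprinted together. Of 18 tested, 11 were higher and 7 lower (median 0.11), so that the list as a whole lay near the median of all genes. Dlk1, a fetal growth gene, was at 0.775, 0.381 and 0.681 CPM in Glutamate and at 3.29, 2.85 and 3.45 CPM in Glutamate_vesicles, and unlike H19 and Igf2 it was high in all 3 vesicle libraries. Mest was at 31.8, 94.5 and 61.4 CPM in Glutamate and had a log2 fold change of -0.09.

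Among the promoters of the RefSeq table, GC boxes occurred in 8 of the 9 that belonged to the 12 higher genes. They occurred in 5 of the 13 that belonged to the 12 lower genes and in 33.1% of all promoters. That share was not limited to the genes tested here or to genes of like level, so it is no matched base for these sets. The difference was not tested. The letters of an AP-1 site occurred in none of the promoters of the 12 higher and 12 lower genes, beside 7.33% of all promoters.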
